A study of Bos taurus with 6 samples.

Results

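Some miRNAs are used as markers of blood and vessel cells. Whether granulosa cells, the somatic cells lining the inside of the ovarian follicle, also make them was not tested here. A set of 10 such marker miRNA names was followed here in granulosa cell libraries of cattle. They were found as the mature names of miR-451, miR-144 and miR-486 (erythroid), miR-142, miR-223, miR-150 and miR-155 (leukocyte) and miR-126 (endothelial), whatever the arm. The rule used no measured value, although the markers were chosen with earlier results of these data known. It found 10 of the 755 mature miRNA names in the files. Of these, 3 names are erythroid, 5 leukocyte and 2 endothelial, and each is listed under 1 precursor.

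The study sequenced small RNA of granulosa cells from heifers (Bos taurus) on day 19 of the estrous cycle, with 3 libraries from preovulatory dominant follicles (PDF) and 3 from anovulatory subordinate follicles (SF). According to the methods the heifers were of the Simmental breed, their cycles were synchronized in the same way with a prostaglandin analogue and a gonadotropin releasing hormone analogue, and follicles were assigned to a type by surface diameter. The granulosa cells were spun out of the follicular content of dissected follicles and washed, without any sorting or lysis of red cells being described. In the paper's PCR check of purity, the granulosa marker FSHR was strong and the theca marker CYP17A1 negligible in all samples. RNA was pooled to make each library. Far fewer PDF than SF were available from the same animals, so few follicles may lie behind a PDF library and many behind a SF library, and the spread between libraries can have another meaning in each group.

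Red blood cell precursors make miR-144 and miR-451 from a shared primary transcript, and miR-451 matures without Dicer, through cleavage by Argonaute 2. It is among the most abundant miRNAs of circulating red cells, together with miR-486, which lies inside the gene of the red cell membrane protein ankyrin 1. Leukocytes express miR-142 in nearly all lineages, miR-223 in myeloid cells, miR-150 in mature lymphocytes and miR-155 after activation, although miR-155 is also made by many other cell types. Endothelial cells express both arms of miR-126 from an intron of EGFL7. In the healthy follicle the capillaries end in the theca, outside the basal lamina, and the granulosa layer has no vessels of its own. In the RefSeq table of the ARS-UCD2.0 assembly, which is not the build the counts were made on and was used for names and neighbours only, MIR144 and MIR451 were neighbours, MIR486 lay within the span of ANK1, MIR126 within EGFL7, MIR142 within TSPOAP1 and MIR223 within VSIG4.

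Total reads per library, counting each mature miRNA once, ran from 190385 to 311842 in PDF and from 306932 to 364125 in SF. Levels as CPM, reads scaled to a common library size, were computed with edgeR's TMM factors. A count of 3 reads, the level below which a miRNA could not be told from an absent one, was worth 9.55 to 13.9 CPM in PDF and 8.86 to 10.6 CPM in SF. Of the granulosa markers looked at, bta-miR-202, a miRNA of the gonads, had between 3484 and 13664 reads in every library and was called higher in PDF (log2 fold change 1.80, SE 0.15, edgeR adjusted p = 8.15e-05). Bta-miR-224, with between 32 and 94 reads, was called lower in PDF (mean 134 against 269 CPM, edgeR adjusted p = 0.0198), and bta-miR-383, with between 3 and 7, was not called (log2 fold change 0.08). Markers of theca and stroma (bta-miR-143, bta-miR-145, both bta-miR-199a arms and bta-miR-214) were present in every library, with a summed level of 17603 to 27823 CPM in PDF and 21064 to 35751 CPM in SF. All 5 of them had reads in every library.

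Which blood and vessel miRNAs differed between the follicle types was asked first. The counts were compared by edgeR's quasi-likelihood test for the 353 miRNAs that had a read in 2 or more replicates of either follicle type. Calls needed a log2 fold change of 1 or more in size, a p no higher than 0.05 and, after Benjamini-Hochberg adjustment, no higher than 0.1. SE is the standard error of a log2 fold change. Of the 10 marker names 9 were tested, and bta-miR-142-3p was not. Bta-miR-451 and bta-miR-486 rose in PDF, and the other 7 were not called. Among all tested miRNAs 11.9% were called higher (42 miRNAs) and 9.63% lower (34 miRNAs). By total count without a composition factor, these numbers became 47 and 23. No marker was called lower by edgeR, against 2 by DESeq2, which called 8.78% of all tested miRNAs lower, and 2 at an unadjusted p under 0.05, which 15.6% of all tested miRNAs reached in that direction. The median log2 fold change was 0.47 over the 9 tested markers and -0.20 over all tested miRNAs. Total count scaling moved the latter to -0.01.

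**Figure D1:**
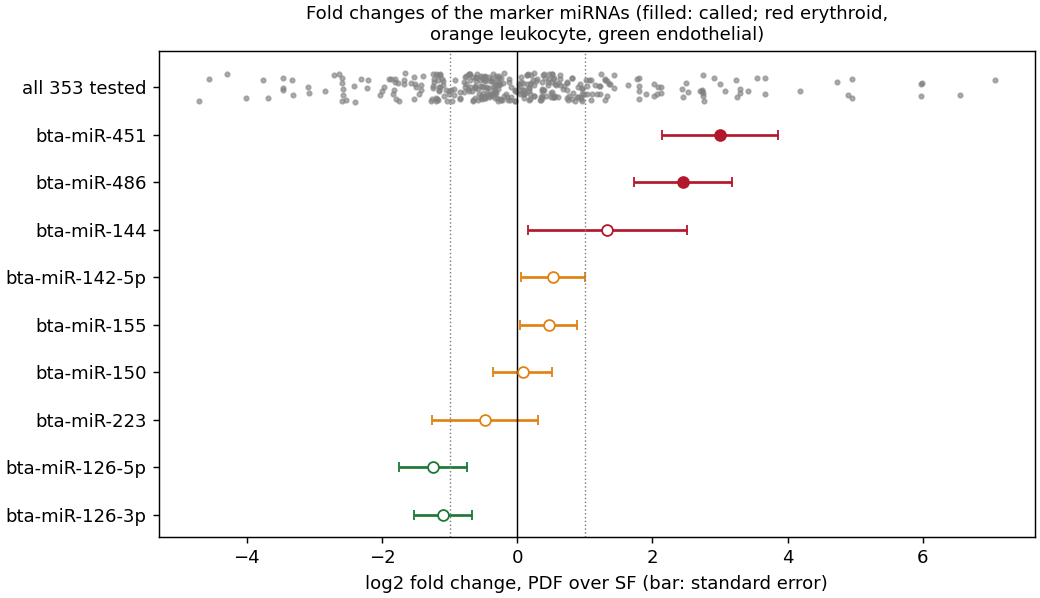
Log2 fold change of PDF over SF for the 9 tested marker miRNAs, with the standard error as bar, and for all 353 tested miRNAs as grey points in the top line (spread vertically for legibility). Filled symbols are called, the dotted lines mark a log2 fold change of 1 in either direction, and only bta-miR-451 and bta-miR-486 are filled, at 3.00 and 2.45.

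Bta-miR-451, the red cell miRNA that bypasses Dicer, had 642, 372 and 38 reads in PDF replicates 1, 2 and 3 and 76, 58 and 28 reads in SF replicates 1, 2 and 3. On the CPM scale these were 2265, 1725 and 121 in PDF and 224, 188 and 98.8 in SF. PDF replicates 1 and 2 stood far above every SF library, while PDF replicate 3 lay inside the SF range. The group means were 1371 ± 1115 CPM in PDF and 170 ± 64.6 CPM in SF (SD, n = 3 each). The log2 fold change was 3.00 (SE 0.86, edgeR adjusted p = 0.0414), with 2 of 3 PDF libraries above all SF libraries.

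Bta-miR-486, whose gene sits within the ankyrin 1 locus, was the most abundant marker, with 3063, 1404 and 291 reads in PDF and 435, 413 and 201 in SF. It ranked 21st and 23rd of all mature names by reads in PDF replicates 1 and 2, but 77th in PDF replicate 3 and between 56th and 80th in the SF libraries. Its level was 10808, 6512 and 927 CPM in PDF and 1285, 1336 and 709 CPM in SF. Again PDF replicate 3 fell within the SF range and the groups overlapped. Within each of the 3 replicate numbers, the PDF library was above the SF library for both bta-miR-451 and bta-miR-486, as it was for 22.7% of all tested miRNAs. The log2 fold change was 2.45 (SE 0.72, edgeR adjusted p = 0.0417).

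Both calls depended on which libraries were kept, although the log2 fold changes stayed above 1. With 1 library left out, the calls over all miRNAs also fell, from 76 to between 54 and 75. Leaving out PDF replicate 1 gave bta-miR-451 a log2 fold change of 2.42 (adjusted p = 0.132, edgeR) and bta-miR-486 one of 1.74 (adjusted p = 0.154, edgeR), and neither passed. Without PDF replicate 2 the log2 fold changes were 2.88 and 2.48 (adjusted p = 0.125 for both, edgeR). Without SF replicate 3, the SF library lowest in both, they were 2.73 and 2.21 (adjusted p = 0.123 and 0.127, edgeR). Without PDF replicate 3 they were larger, at 3.55 and 2.98 (adjusted p = 0.000302 and 0.000705, edgeR).

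Bta-miR-144, the partner of bta-miR-451 on the primary transcript, was nearly absent. It had 5, 2 and 0 reads in PDF and 1, 2 and 0 in SF, so only PDF replicate 1 exceeded 3 reads. The 2 libraries without a read, PDF replicate 3 and SF replicate 3, allow up to 9.55 and 10.6 CPM, respectively. Its log2 fold change of 1.33 (SE 1.18, edgeR adjusted p = 0.45) did not pass, and a difference was not detectable at this depth.

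Read as a share, the 3 erythroid miRNAs took 1.43% of all miRNA reads in PDF replicate 1 (95% exact Clopper-Pearson interval 1.38 to 1.47), 0.934% in PDF replicate 2 (0.891 to 0.978) and 0.106% in PDF replicate 3 (0.0944 to 0.118). The SF libraries had 0.155% (0.142 to 0.169), 0.130% (0.118 to 0.142) and 0.0746% (0.0653 to 0.0849). These intervals cover counting error only. The intervals of PDF replicates 1 and 2 were apart from those of all other libraries, and that of PDF replicate 3 lay between SF replicate 2 and SF replicate 3. Mean shares were 0.822 ± 0.668% in PDF and 0.120 ± 0.0411% in SF (SD, n = 3 each). In such bulk RNA, fewer cells of a type and less RNA per cell cannot be told apart.

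**Figure D2:**
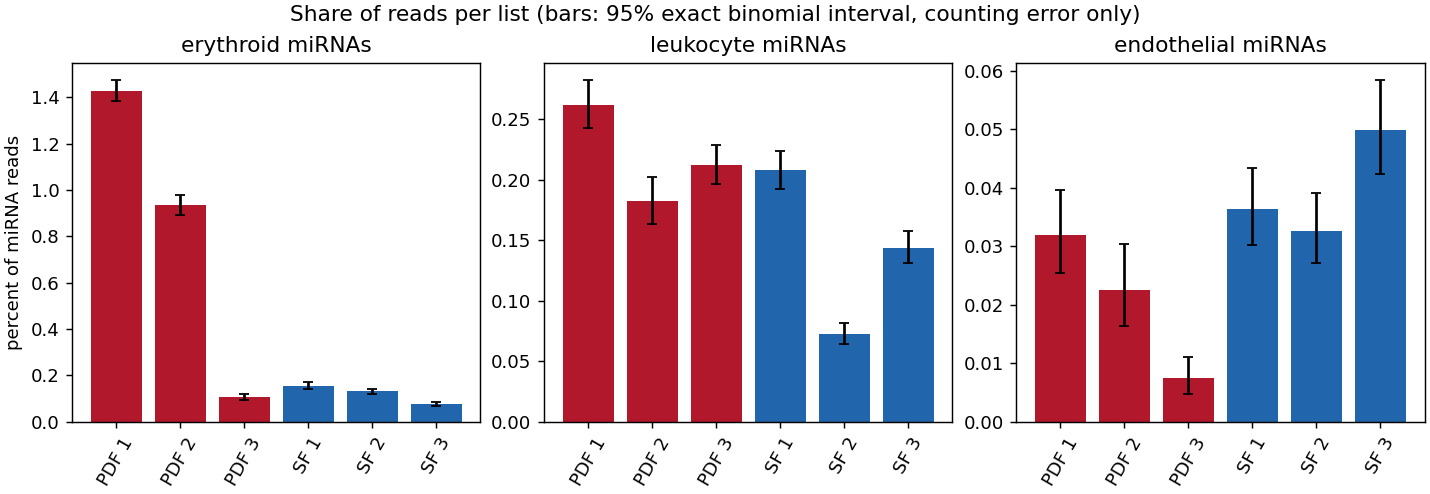
Percent of all miRNA reads taken by the erythroid (3 names), leukocyte (5) and endothelial (2) miRNAs in each library, with 95% exact binomial intervals, PDF in red and SF in blue. The erythroid share is highest in PDF replicates 1 and 2, at 1.43 and 0.934%, the leukocyte share overlaps between the follicle types, and the endothelial share is lowest in PDF replicate 3, at 0.0074%.

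Bta-miR-451 and bta-miR-486 kept a similar proportion to each other over a wide range of levels. The log2 ratio of bta-miR-451 to bta-miR-486 reads, after adding 1 to both, was -2.25, -1.91 and -2.90 in PDF and -2.50, -2.81 and -2.80 in SF. It varied by 0.99 over the 6 libraries, whereas bta-miR-451 itself varied by 4.19 on the log2 CPM scale within PDF alone. The ratio of bta-miR-144 to bta-miR-451 ranged from -6.96 to -4.30 and rested on at most 5 reads of bta-miR-144. The ratio of bta-miR-451 to bta-miR-23a, which serum studies read as a sign of red cell lysis, was 2.92, 2.35 and -1.44 in PDF and 0.12, 0.025 and -1.58 in SF. Bta-miR-23a itself stayed between 57 and 105 reads. By this ratio the libraries stood in the same order as by bta-miR-451 reads, with PDF replicate 3 next to SF replicate 3 at the low end. With bta-miR-23a so steady, this order adds little to that of the bta-miR-451 reads. Whether the ratio reflects lysis in cell libraries, rather than serum, was not tested.

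**Figure D3:**
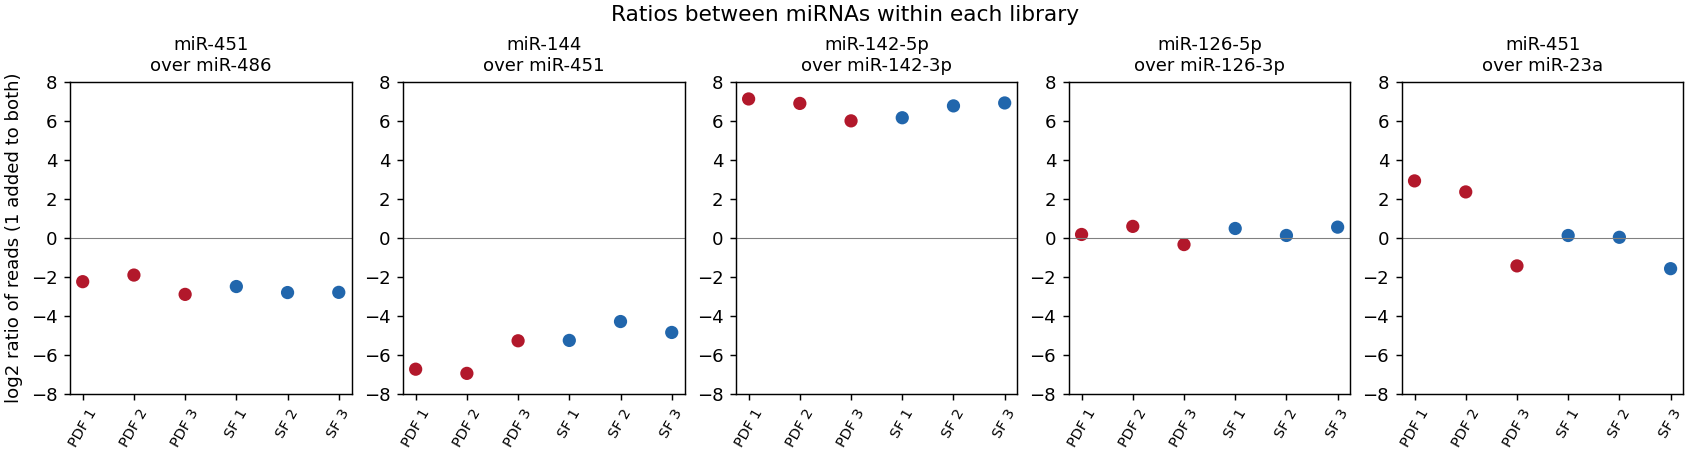
Log2 ratio of reads (1 added to both) for 5 pairs of miRNAs in each library, PDF in red and SF in blue, on a shared axis. The ratio of bta-miR-451 to bta-miR-486 stays between -2.90 and -1.91, that of bta-miR-142-5p to bta-miR-142-3p is at least 6, both arms of bta-miR-126 are near 0, and the ratio of bta-miR-451 to bta-miR-23a runs from -1.58 to 2.92.

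Other miRNAs that are abundant in red cells are also made by many other cell types. Of the 9 listed (bta-miR-16a, bta-miR-16b, bta-miR-15b, bta-miR-25, bta-miR-92a, bta-miR-93, bta-miR-106b, bta-miR-185 and bta-miR-363), 8 were tested, none was called higher and 1 was called lower in PDF. Their median log2 fold change was -0.36, beside -0.20 over all tested miRNAs. Their summed level was 23712, 25256 and 24296 CPM in the PDF libraries, a narrow range, and 60030, 75782 and 49556 CPM in SF. The most abundant of them in every library was bta-miR-92a, with at most 49.6% of their reads in PDF and at least 67.4% in SF, and it was the member that was called lower (log2 fold change -1.97, SE 0.21, edgeR adjusted p = 0.00027).

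The leukocyte miRNAs did not differ between the follicle types by the test, and they stood in different orders across libraries. None of the 4 tested was called, and their median log2 fold change was 0.28. Together the 5 names took 0.219 ± 0.0403% of the reads in PDF and 0.141 ± 0.0678% in SF (SD, n = 3 each), and the groups overlapped. Within each replicate number the share was the higher in PDF, at 0.262 against 0.208%, 0.182 against 0.0725% and 0.212 against 0.144%. None of the 4 tested markers was itself above in CPM in all 3 replicate numbers, as 22.7% of all tested miRNAs were. In replicate 3 bta-miR-155 was higher in PDF (1850 against 1002 CPM). There bta-miR-142-5p (201 against 423 CPM) and bta-miR-150 (50.9 against 116 CPM) were lower in PDF. Between 52.3 and 87.8% of the leukocyte reads of a library were bta-miR-155.

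Bta-miR-142-5p, a miRNA of nearly all blood cell lineages, had 278, 118 and 63 reads in PDF and 142, 108 and 120 in SF. In CPM it was 981, 547 and 201 in PDF and 419, 349 and 423 in SF. The SF libraries were close together, and the PDF libraries lay on both sides of them. PDF replicate 1 was thus the highest and PDF replicate 3 the lowest of all 6 libraries. The log2 fold change was 0.53 (SE 0.47, edgeR adjusted p = 0.45). It turned to -0.10 without PDF replicate 1 and was 0.96 without PDF replicate 3.

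The other arm of the same hairpin, bta-miR-142-3p, had 1 read each in PDF replicate 1 and SF replicate 1 and none in the other 4 libraries. The log2 ratio of the 5p to the 3p arm was therefore at least 6 in every library, with 1 read added to both. Of the leukocyte markers, bta-miR-223 was also near 0, with 2, 1 and 2 reads in PDF and 2, 1 and 5 in SF. Only SF replicate 3 exceeded 3 reads, and no difference was detectable at this depth (log2 fold change -0.48, SE 0.78, edgeR adjusted p = 0.687).

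Bta-miR-150, a marker of mature lymphocytes, had 35, 22 and 16 reads in PDF and 30, 17 and 33 in SF. Its level was 92.2 ± 37.3 CPM in PDF and 86.7 ± 30.8 CPM in SF (SD, n = 3 each). The groups overlapped almost entirely, with a log2 fold change of 0.08 (SE 0.43, edgeR adjusted p = 0.897). Within PDF it stood in the same order as bta-miR-142-5p, with replicate 3 at 50.9 CPM as the lowest of the 6 libraries.

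Bta-miR-155, which is induced in activated immune cells and present in many other cells, was the most abundant leukocyte marker, with 365, 206 and 581 reads in PDF and 512, 138 and 284 in SF. In CPM these were 1288, 956 and 1850 in PDF and 1512, 446 and 1002 in SF. Its highest library was PDF replicate 3, the library where bta-miR-142-5p and bta-miR-150 were lowest, and its lowest was SF replicate 2. The log2 fold change was 0.47 (SE 0.42, edgeR adjusted p = 0.455). The log2 ratio of bta-miR-142-5p to bta-miR-155, a ratio chosen after the values were seen, ran from -3.18 in PDF replicate 3 to -0.35 in SF replicate 2. The ratio of bta-miR-142-5p to bta-miR-150, likewise chosen afterwards, had a narrower range, from 1.83 to 2.95.

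A further list of 5 miRNAs linked to immune cells but shared with many cell types (bta-miR-146a, bta-miR-146b, bta-miR-342, bta-miR-181a and bta-miR-181b) had no member called. Their median log2 fold change was -0.26, beside -0.20 over all tested miRNAs. The largest differences were those of bta-miR-146a, with 85, 37 and 74 reads in PDF and 140, 89 and 107 in SF (log2 fold change -0.60, SE 0.27, edgeR adjusted p = 0.159), and bta-miR-146b (log2 fold change -0.42, SE 0.24, edgeR adjusted p = 0.248).

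**Figure D4:**
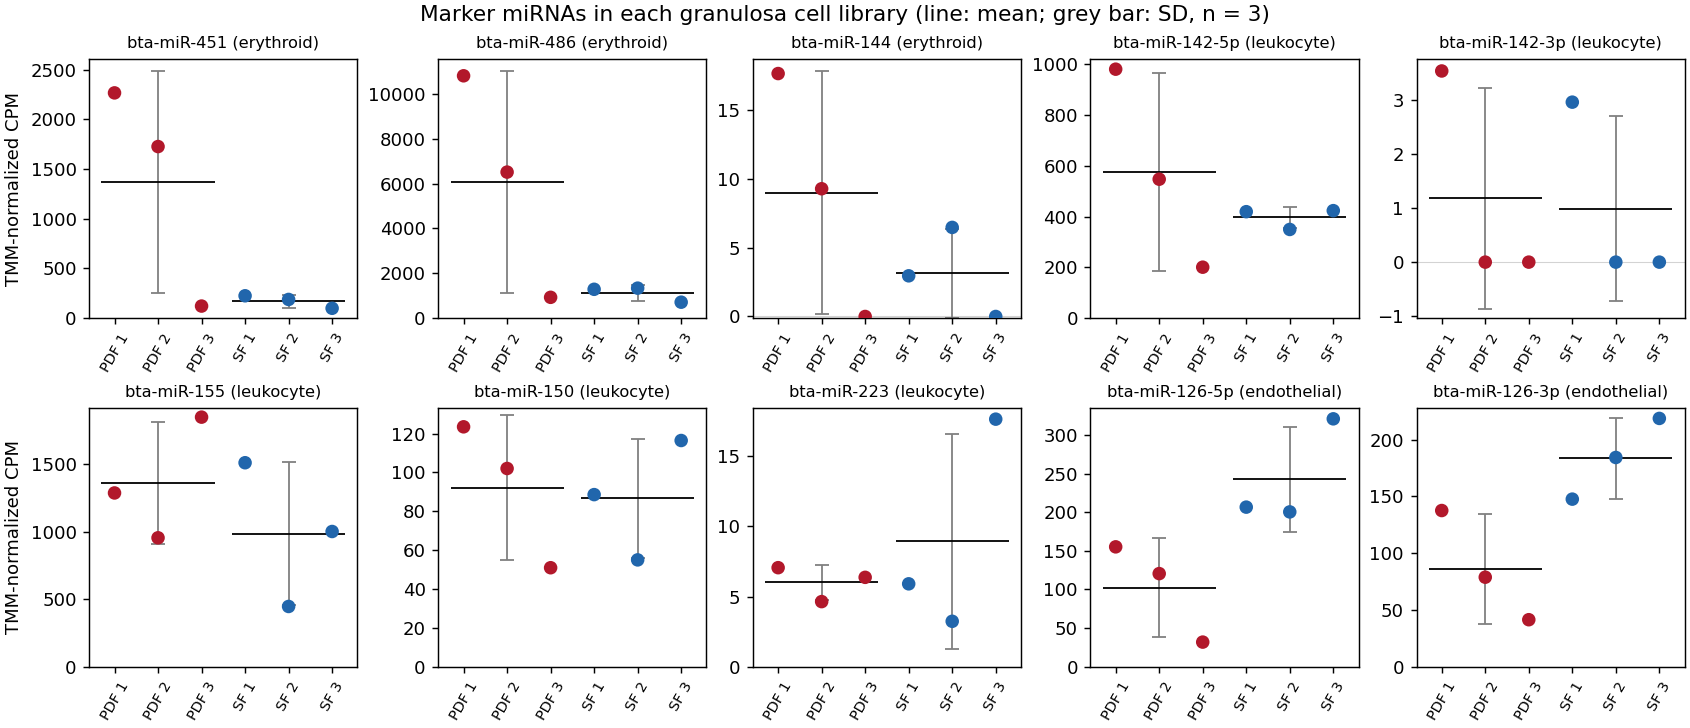
TMM-normalized CPM of each of the 10 marker miRNAs in the 6 libraries, PDF in red and SF in blue, with the mean (line) and SD (grey bar, n = 3) of each follicle type and a separate linear axis for each miRNA. PDF replicates 1 and 2 are highest for bta-miR-451 and bta-miR-486, PDF replicate 3 is highest for bta-miR-155, and every PDF library is below every SF library for both arms of bta-miR-126.

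The endothelial miRNA pointed the other way from the erythroid miRNAs. Bta-miR-126-5p had 44, 26 and 10 reads in PDF and 70, 62 and 91 in SF, which were 155, 121 and 31.8 CPM in PDF and 207, 201 and 321 CPM in SF. Bta-miR-126-3p had 39, 17 and 13 reads in PDF and 50, 57 and 62 in SF, which were 138, 78.9 and 41.4 CPM in PDF and 148, 184 and 219 CPM in SF. For both arms every PDF library was below every SF library, a pattern that 18.4% of all tested miRNAs showed in this direction. For the 3p arm the gap was narrow, between 138 CPM in PDF replicate 1 and 148 CPM in SF replicate 1. Of the 5 theca and stroma markers, none was called higher and 1, bta-miR-214, was called lower in PDF (log2 fold change -1.20, SE 0.35, edgeR adjusted p = 0.0417). Their median log2 fold change was -0.53, beside -0.20 over all tested miRNAs, and their part in the bta-miR-126 difference was not tested.

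The differences in bta-miR-126 were near the threshold and did not pass it. The log2 fold change was -1.25 for the 5p arm (SE 0.50, edgeR adjusted p = 0.113) and -1.09 for the 3p arm (SE 0.43, edgeR adjusted p = 0.105). DESeq2 called both, with log2 fold changes of -1.25 and -1.10 (adjusted p = 0.0846 and 0.0969). By total count without a composition factor they were weaker, at -1.02 and -0.86 (adjusted p = 0.216 for both, edgeR). Leaving out PDF replicate 1 made the 3p arm pass (log2 fold change -1.63, adjusted p = 0.0497, edgeR), and without PDF replicate 3 the log2 fold changes were -0.81 and -0.73 (adjusted p = 0.134 and 0.199, edgeR). The arms come from 1 hairpin and are not independent of each other. The log2 ratio of 5p to 3p reads lay between -0.35 and 0.58 in the 6 libraries, and PDF replicate 3 was the only library where it was below 0.

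Most markers varied widely among the PDF libraries. The range of log2 CPM over the 3 libraries of a follicle type was computed for the 194 miRNAs averaging 10 reads or more, among them 7 of the markers. Its median was 0.54 in PDF and 0.55 in SF. For bta-miR-451 the PDF range was 4.19, the 4th widest of the 194, and for bta-miR-486 it was 3.54, the 8th widest, while their SF ranges were 1.16 and 0.91. For bta-miR-142-5p the ranges were 2.27 in PDF (12th) and 0.28 in SF (154th). The arms of bta-miR-126 had PDF ranges of 2.17 and 1.65 against 0.67 and 0.56 in SF. A wider range in PDF than in SF was found for 6 of the 7 markers and for 51.5% of the 194 miRNAs. The exception was bta-miR-155, with 0.95 in PDF and 1.75 in SF. Ranges of miRNAs with few reads also hold counting error.

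**Figure D5:**
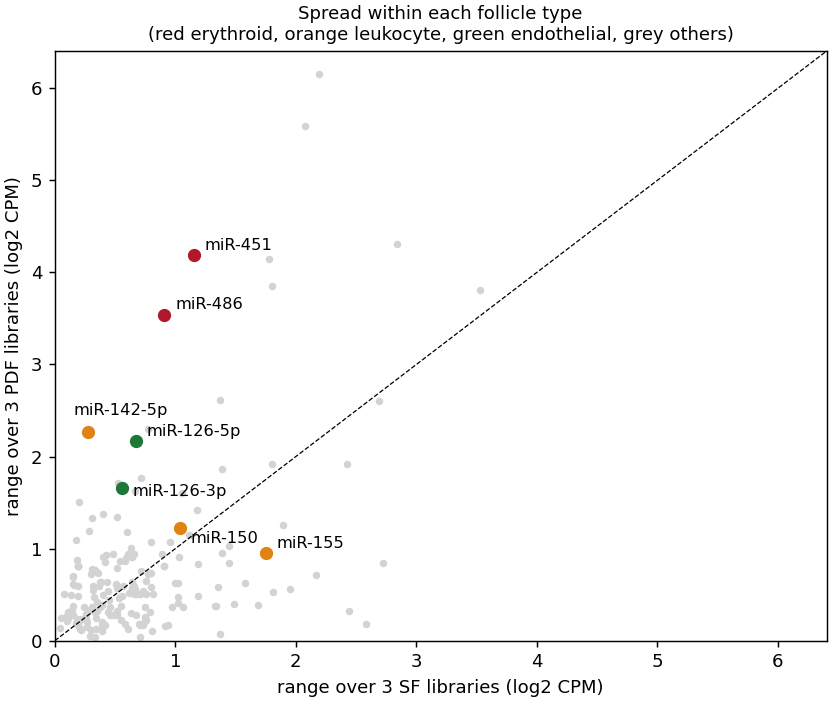
Range of log2 CPM over the 3 PDF libraries (vertical axis) against that over the 3 SF libraries (horizontal axis) for the 194 miRNAs averaging 10 reads or more, with the 7 markers among them in colour and a dashed line of equality. Bta-miR-451 and bta-miR-486 have PDF ranges of 4.19 and 3.54, and bta-miR-155 is the only marker below the line.

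The markers varied among the PDF libraries in a common order. The same 6 markers, bta-miR-451, bta-miR-486, bta-miR-142-5p, bta-miR-150 and both arms of bta-miR-126, were highest in PDF replicate 1 and lowest in PDF replicate 3, as were 16.5% of the 194 miRNAs. This order was counted after the values had been seen. PDF replicate 3 stood apart in other miRNAs too, and SF replicate 3 did so in the same ones. Of the 10 miRNAs with the widest PDF range, 7 were highest in PDF replicate 3, as were 41.2% of the 194 miRNAs. These 7, which included bta-miR-2411-3p and bta-miR-1246, were also all highest in replicate 3 among the SF libraries. The remaining 3 were highest in PDF replicate 1, as were 26.3% of the 194 miRNAs. These 3 included the markers bta-miR-451 and bta-miR-486. Whether a property of replicate 3 lies behind the low markers was not tested. Among the SF libraries bta-miR-142-5p, bta-miR-150 and both arms of bta-miR-126 were highest in replicate 3, the library where bta-miR-451 and bta-miR-486 were lowest.

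Profiles most like those of the markers were looked for among the 194 miRNAs, as the root mean square difference of log2 CPM over the 6 libraries after centring each miRNA on its mean. The nearest profile to bta-miR-451 was that of bta-miR-486, at a difference of 0.35 beside a median of 1.82 over all miRNAs. Outside the markers, bta-miR-2313-3p (1.14), bta-miR-34a (1.24) and bta-miR-204 (1.32) came next. Reads of bta-miR-2313-3p numbered 209, 131 and 15 in PDF and 2, 9 and 3 in SF, so it shared the low value of PDF replicate 3, whereas bta-miR-204 did not, with 1936, 1356 and 1898 reads in PDF and 578, 523 and 369 in SF.

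Nearest to bta-miR-142-5p were bta-miR-328 (0.32), the marker bta-miR-150 (0.39), bta-miR-145 (0.56) and bta-miR-6529 (0.57), beside a median of 0.84. Bta-miR-145, of smooth muscle and stroma, was thus closer to it than bta-miR-155, at 0.98. For bta-miR-155 the nearest were bta-miR-21-5p (0.37), bta-miR-874 (0.44) and bta-miR-324 (0.44), beside a median of 0.85. Bta-miR-21-5p had 8991, 5430 and 11665 reads in PDF and 7865, 1855 and 4267 in SF, and both miRNAs were highest in PDF replicate 3 among the PDF libraries and lowest in SF replicate 2 among all. Bta-miR-126-5p was nearest to its own 3p arm (0.32), then to bta-miR-744 (0.45), bta-miR-99b (0.46) and bta-miR-1343-3p (0.61), beside a median of 1.10. All of these 3 were called lower in PDF, as were 9.63% of all tested miRNAs. Their log2 fold changes were -1.17, -1.50 and -1.09 (adjusted p = 0.0414, 0.0294 and 0.0202, edgeR). They had been picked for likeness to a profile itself lower in PDF, so these calls are no separate evidence.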

How the data were processed

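The authors trimmed adapters with Cutadapt, removed reads that were short or of low quality, mapped the rest with Bowtie to the bovine genome (UMD3.1 per the labels) and counted them on known bovine miRNAs with miRDeep2. The deposited values are raw read counts, 1 row for each of 906 pairs of mature miRNA and precursor. The largest row per mature name was used. Counts were tested with edgeR 4.0.16 (R 4.3.3), TMM factors and follicle type as the only term, with Benjamini-Hochberg adjustment over 353 miRNAs; the standard error is the log2 fold change divided by the root of the quasi-likelihood F. DESeq2 1.42.0 was an alternative, and the script was tested on simulated data. CPM used TMM factors, and log2 CPM a prior count of 1. Replicates are pools, and nothing says that they share no animals, so p-values measure the spread between these pools. Replicate numbers are the same in both groups. Deviations from the group means correlated between libraries of the same number (r = 0.14, 0.38 and 0.41 over 194 miRNAs). PDF replicate 2 with SF replicate 1 (0.19) and PDF replicate 1 with SF replicate 2 (0.12) did too. Replicate 3 of either group correlated negatively with replicates 1 and 2 of the other group (r from -0.42 to -0.19). The study names no pairing, so the main test left the libraries unpaired, and a replicate block was run as an alternative. Lists and markers were chosen with earlier results of these data known. Named are the markers, the members of the lists and the 3 nearest profiles outside the markers for 4 of them; other names were chosen after their values were seen. Python 3.11.15 was used for the rest.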

Additional observations from a re-analysis of the deposited data

How the results depend on the processing

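The number of markers called higher in PDF was 2 under each alternative of tool, scaling, filter, precursor rows, block and threshold that kept all 6 libraries. It ranged from 0 to 2 when 1 library was left out, and was 0 without PDF replicate 1, PDF replicate 2 or SF replicate 3. The number called lower was 0, but 2 with DESeq2 and with no filter on low counts. It was also 2 with at least 10 reads in at least 3 libraries. These 2 were the arms of bta-miR-126, from 1 hairpin. Over all miRNAs 34 were called lower in the main test, and 31, 35 and 27 under these 3 alternatives, in that order. With 1 library left out the number of markers called lower ranged from 0 to 1. A replicate block, which pairs the libraries by their number, called 2 markers higher, 0 lower and 71 miRNAs in all. It gave log2 fold changes of 2.48 for bta-miR-451 and 1.96 for bta-miR-486 (adjusted p = 0.0209 and 0.0263, edgeR) and changed no marker's call. With 1 library left out, log2 fold changes changed sign for 3 markers that were not called, with ranges of -0.10 to 0.96 for bta-miR-142-5p, -0.20 to 0.38 for bta-miR-150 and -0.86 to 0.38 for bta-miR-223. The differences in list shares (PDF minus SF, percentage points) kept their direction under every alternative run. With 1 library left out the erythroid difference of 0.703 ranged from 0.400 (without PDF replicate 1) to 1.06 (without PDF replicate 3), the leukocyte one of 0.0774 from 0.0429 (without SF replicate 2) to 0.111, and the endothelial one of -0.0190 from -0.0246 to -0.0124 (without PDF replicate 3). At this depth bta-miR-144, bta-miR-142-3p and bta-miR-223 could not be compared. The cause of these shifts was not tested.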
